A study of Mus musculus with 2 samples.

Results

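Collagen chain genes encode the alpha chains of the collagens, the main structural proteins of the extracellular matrix. They were taken as every row of both count tables whose Ensembl gene is protein-coding in GENCODE M21 and carries a Col symbol with a type and a chain number (ColNaN). This gave 44 genes of the 55421 in the tables: 11 fibrillar chains, 6 basement membrane chains of type IV, 6 beaded filament chains of type VI and 21 chains of other types. Mouse liver RNA was sequenced in 2 libraries of bulk tissue at a labelled time of 8 weeks. One library represents mice with a conditional knockout of Rcrin, labelled Rcrin knockout. The other, labelled WT, represents Rcrin flox mice, in which loxP sites have been placed around a stretch of the gene. The sources used here do not give the promoter that drove recombination, the cell type it acts in or how many mice went into each library. With 1 library per genotype no spread between mice could be estimated, so no test was made, and every difference is one between these libraries.

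Collagen chains fold as trimers held by a repeat in which glycine recurs at a fixed spacing, and the trimers are cleaved, assembled and crosslinked outside the cell. Fibrillar collagens (types I, III and V here) form the cables of the portal tracts and of scars. Type IV forms the sheet of basement membranes and is also found along the sinusoids, where the liver has no continuous basement membrane. Type VI forms beaded filaments near the cell surface, between fibrils and basement membranes. In the liver, stellate cells and portal fibroblasts are known as the main makers of fibrillar chains, endothelial and stellate cells make type IV, and hepatocytes make type XVIII, whose C-terminal fragment is endostatin.

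The compared collagen chains stood lower in the Rcrin knockout library more often than higher. Of 44 genes, 19 had a mean of at least 50 counts over both libraries and were compared, and 15 of these had a log2 ratio of knockout over WT below 0. Over all 12064 genes compared, 50.8% lay below 0. Past the limit of 2-fold 3 chains were lower and 0 were higher. The 3 are 15.8% of the chains compared, beside 8.61% of all genes compared, and 8.45% of all genes were higher by as much. The lower ones were Col15a1 (log2 ratio -2.26), Col1a1 (-1.67) and Col6a1 (-1.31), and the highest chain was Col5a3 at 0.75. The median over the 19 chains was -0.51, against -0.01 over all genes compared.

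Each ratio was taken after TMM scaling of the library totals, with 0.5 counts added, and its interval is the exact conditional 95% interval. That interval covers counting error only, and reads made by PCR are not independent molecules. By this interval 13 chains lay wholly below 0 and 3 wholly above it, while 40.0% of all genes lay wholly below and 39.3% wholly above. No interval here covers variation from mouse to mouse. In bulk tissue, fewer cells of a type and less RNA per cell cannot be told apart.

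**Figure D1:**
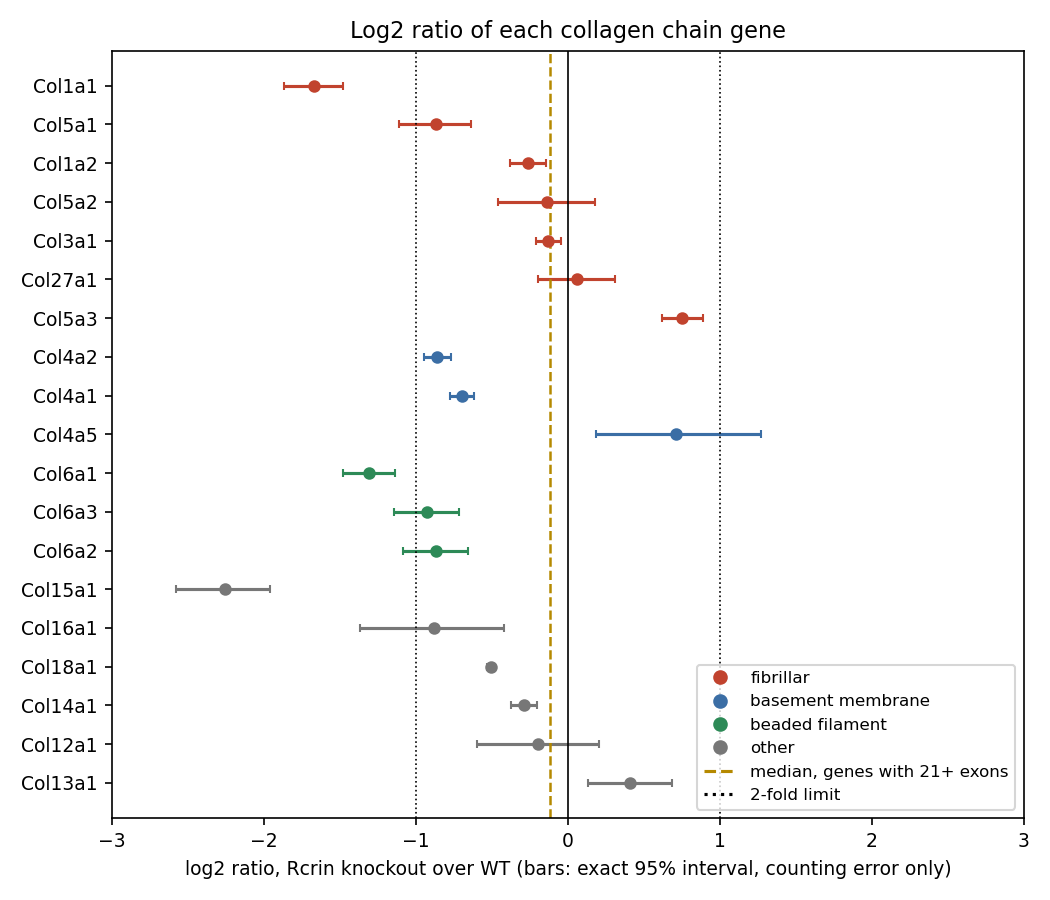
Log2 ratio of Rcrin knockout over WT on the x axis for each of the 19 collagen chain genes compared, coloured by class, with exact 95% intervals (counting error only). The dotted lines mark 2-fold and the dashed line the median of genes with at least 21 exons. Col15a1, Col1a1 and Col6a1 lie beyond 2-fold on the lower side, and Col5a3, Col4a5 and Col13a1 lie wholly above 0.

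The chains share features that the rule of choice did not use. The 19 compared genes had 28 to 70 exons, which puts them among the genes with most exons, a group in which fewer genes differed by 2-fold. Among the 1567 compared genes with at least 21 exons, the median log2 ratio was -0.12, 57.8% lay below 0, 6.57% were lower by at least 2-fold and 4.59% were higher. Their GC content, as the median over transcripts, ran from 46.2% to 61.3%. GC content moved with the ratio over all genes (Spearman rho -0.33 across 12064 genes, which are not independent replicates). Among genes with at least 21 exons, the 368 with a GC content of 55% or more had a median of -0.40 and the other 1199 a median of -0.01. The same limit, set after the values were seen, gave a median of -0.86 for 12 chains and of -0.20 for the 7 with less GC. Over the 19 chains the Spearman rho of the ratio with GC content was only -0.13. With the trend of the ratio with GC content removed, the same 15 chains lay below 0 and the median over all 19 was -0.45. That removal moved the log2 ratios of Col18a1, Col4a1, Col1a2, Col13a1 and Col27a1 by over 1.5 times, and their values are given with each chain.

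**Figure D2:**
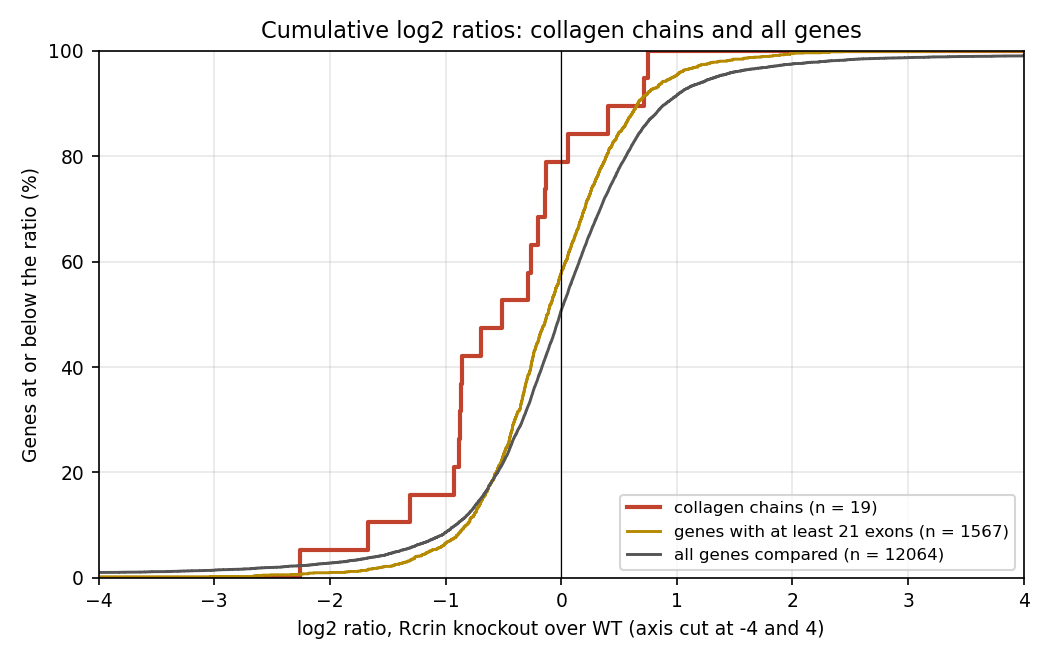
Cumulative share of genes (y axis, %) at or below each log2 ratio of Rcrin knockout over WT (x axis, cut at both ends) for 19 collagen chains, 1567 genes with at least 21 exons and all 12064 genes compared. The collagen curve lies left of both others over most of its range and crosses 0 at 78.9%, against 57.8% for genes with at least 21 exons and 50.8% for all genes.

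Sequence upstream of the annotated start is shown for chains at both ends of the range. Of the 19 compared chains 15 had an entry in the RefSeq promoter table of GRCm38.p6. Col5a3 (highest ratio) and Col5a1 (a chain of the same collagen type on the lower side) are set beside Col15a1 (lowest ratio), each as the 250 bases before the RefSeq start, 5′ to 3′ on the strand of the gene. Capitals mark GGGCGG, the core of the GC box, and CCAAT, on either strand. TATAAA was searched as well. The Col5a3 window (chr9:20815068-20815317, minus strand) held 2 GC boxes and 1 CCAAT, the Col5a1 window (chr2:27886175-27886424, plus strand) 2 GC boxes and 0 CCAAT, and the Col15a1 window (chr4:47207762-47208011, plus strand) none of them. TATAAA was in none of these windows. The Col5a3 and Col5a1 windows end at the GENCODE start of their gene. The Col15a1 window ends at 47208011, short of the GENCODE start at 47208161, and the bases between were not searched. Among all 32851 windows of the table, 32.7% held GGGCGG, 33.8% CCAAT and 12.4% TATAAA on either strand. A match is a description of letters and not a bound site.
Col5a3: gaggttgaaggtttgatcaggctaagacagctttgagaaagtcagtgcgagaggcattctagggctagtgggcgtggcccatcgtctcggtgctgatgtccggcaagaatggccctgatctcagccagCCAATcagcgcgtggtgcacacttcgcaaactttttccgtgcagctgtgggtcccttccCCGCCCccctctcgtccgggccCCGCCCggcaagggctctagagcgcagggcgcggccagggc
Col5a1: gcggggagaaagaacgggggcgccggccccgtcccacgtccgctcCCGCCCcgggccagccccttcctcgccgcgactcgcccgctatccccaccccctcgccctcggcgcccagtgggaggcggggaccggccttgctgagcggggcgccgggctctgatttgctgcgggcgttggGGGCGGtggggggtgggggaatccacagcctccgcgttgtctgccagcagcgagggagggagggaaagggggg
Col15a1: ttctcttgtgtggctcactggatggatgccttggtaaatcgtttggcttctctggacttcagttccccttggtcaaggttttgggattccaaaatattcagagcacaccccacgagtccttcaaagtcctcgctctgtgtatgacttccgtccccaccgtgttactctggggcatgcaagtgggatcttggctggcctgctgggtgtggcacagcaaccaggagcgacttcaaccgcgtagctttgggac

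The genes of the main type IV trimer, Col4a1 and Col4a2, lie head to head on GRCm38 chromosome 8. Col4a1 runs from 11198423 to 11312826 on the minus strand and Col4a2 from 11312805 to 11449287 on the plus strand. Their annotated first exons share 22 bases (chr8:11312805-11312826, plus strand given), shown because the starts of these partner genes fall within it. The capitals mark a GC box.
Col4a1 and Col4a2: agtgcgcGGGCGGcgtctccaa

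Among fibrillar chains the ratios ran from -1.67 to 0.75, with a median of -0.14. Of the 7 compared, 5 lay below 0, beside 50.8% of all genes compared. Col1a1, the alpha 1 chain of type I collagen (ENSMUSG00000001506, chromosome 11 from 94936224 to 94953042, 51 exons), had 279 counts in the knockout library and 945 in the WT library. That is 3.19-fold lower, with an interval of -1.87 to -1.48 on the log2 scale. Its partner Col1a2 (chromosome 6 from 4504814 to 4541544, 52 exons), which joins it in the type I trimer, had 1032 counts in the knockout library and 1314 in the WT library (log2 ratio -0.26, interval -0.38 to -0.14). With the GC trend removed the log2 ratio was -1.43 for Col1a1 and -0.46 for Col1a2. So the chains of the same trimer stood apart, with only Col1a1 past 2-fold. Col3a1, the type III chain, which forms fibrils with type I, had 2281 knockout and 2647 WT counts, a log2 ratio of -0.13 (interval -0.21 to -0.05).

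Type V chains, which sit in the core of type I fibrils and limit their width, did not share a direction. Col5a1 had 226 counts in the knockout library and 439 in the WT library, with a log2 ratio of -0.87 (-0.63 with the GC trend removed). Col5a2 had 153 knockout and 179 WT counts, and its interval of -0.46 to 0.18 includes 0. Col5a3, the chain found in a subset of type V trimers (chromosome 9 from 20770050 to 20815067, 67 exons), stood 1.68-fold higher, with 1170 knockout and 737 WT counts (interval 0.62 to 0.89). It had the highest ratio of the 19, and a log2 ratio of 1.03 with the GC trend removed. Col27a1, a fibrillar chain best known from cartilage, had 258 counts in the knockout library and 263 in the WT library (log2 ratio 0.06, interval -0.20 to 0.31, and 0.32 with the GC trend removed).

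Both chains of the common type IV trimer stood lower by similar amounts. Col4a1 had 2150 counts in the knockout library and 3697 in the WT library, with a log2 ratio of -0.70 (interval -0.77 to -0.62), which was -0.45 with the GC trend removed. Col4a2 had 1556 knockout and 2995 WT counts and a log2 ratio of -0.86 (interval -0.95 to -0.77), which was -0.58 with the GC trend removed. Col4a5, a chain of the type IV network of the kidney glomerulus, had few counts, 76 in the knockout library and 49 in the WT library, and a log2 ratio of 0.71 with a wide interval of 0.18 to 1.27. With a mean of 62.5 counts it lay just inside the level limit, which it reached through the knockout library.

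The type VI chains all stood lower, with a median of -0.93 over the 3 compared. Of all genes compared, 50.8% lay below 0. Col6a1 (ENSMUSG00000001119, chromosome 10 from 76708792 to 76726168, 35 exons) had 387 counts in the knockout library and 1017 in the WT library, 2.48-fold lower (log2 ratio -1.31, interval -1.48 to -1.14). Col6a2, which lies on the same strand of chromosome 10 from 76595762 to 76623630, had 280 knockout and 543 WT counts (log2 ratio -0.87, interval -1.08 to -0.66). Col6a3, the largest chain of the trimer, encoded on chromosome 1, had 266 knockout and 538 WT counts (-0.93, interval -1.15 to -0.72). The intervals of Col6a2 and Col6a3 both reach past 2-fold, without removal of the GC trend. With that trend removed the log2 ratios were -1.06 for Col6a1, -0.63 for Col6a2 and -0.74 for Col6a3, with a median of -0.74.

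Among the other types 5 of 6 compared chains lay below 0, beside 50.8% of all genes compared. Col15a1, a multiplexin of the vessel wall and basement membrane zone (ENSMUSG00000028339, chromosome 4 from 47208161 to 47313167, 40 exons), had 106 counts in the knockout library and 540 in the WT library. It was 4.78-fold lower (interval -2.58 to -1.96), the only chain past 4-fold, a limit that 2.80% of all genes compared passed on the lower side. The other multiplexin, Col18a1 (ENSMUSG00000001435, chromosome 10 from 77052178 to 77166548), had 33668 knockout and 50872 WT counts, a log2 ratio of -0.51 (interval -0.53 to -0.49). With the GC trend removed its log2 ratio was -0.23. Both chains are known for C-terminal fragments that restrain vessel growth. Slc19a1, on the opposite strand, overlaps the Col18a1 gene and had 458 counts in the knockout library and 751 in the WT library. The use of strand in counting was not given, so its reads could not be told from those of Col18a1 where exons overlap.

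The fibril-associated chains Col14a1, Col16a1 and Col12a1 sit on the surface of fibrils or link them to other matrix. Col14a1 had 2029 counts in the knockout library and 2633 in the WT library, with a log2 ratio of -0.29 (interval -0.37 to -0.21). Col16a1 had 58 knockout and 114 WT counts (-0.88, interval -1.37 to -0.42). Col12a1 had 97 knockout and 118 WT counts, and its interval of -0.60 to 0.20 includes 0. Col13a1, a transmembrane collagen of cell adhesion sites, stood on the other side with 249 knockout and 199 WT counts (log2 ratio 0.41, interval 0.13 to 0.68, and 0.67 with the GC trend removed).

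Levels of different genes were compared per kb of annotated exon, as TMM-scaled CPM. Col18a1 stood first in both libraries at 76.8 in the knockout library and 109 in the WT library, and it held 74.2% of the summed level of all 44 chains in the knockout library and 73.7% in the WT library. Next came Col4a1 (4.61 in the knockout library and 7.47 in the WT library), Col14a1 (4.63 in knockout and 5.66 in WT), Col4a2 (3.76 in knockout and 6.83 in WT) and Col3a1 (3.72 in knockout and 4.07 in WT). In the knockout library the counting intervals of Col14a1 and Col4a1 overlapped, as did those of Col4a2 and Col3a1. In the WT library these 4 were each apart from the next. Col1a1 was in place 10 of 19 in the knockout library and in place 7 in the WT library, and Col15a1 in place 15 in the knockout library and 10 in the WT library. Col5a3 was in place 6 in the knockout library and in place 8 in the WT library. The order depends on the length used. Per kb of the longest transcript, Col1a2 (3.09 in the knockout library and 3.71 in the WT library) lay above Col1a1 (0.753 in knockout and 2.40 in WT) in both libraries. Per kb of all exons, Col1a1 (0.680 in knockout and 2.17 in WT) lay above Col1a2 (1.33 in knockout and 1.60 in WT) in the WT library only.

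**Figure D3:**
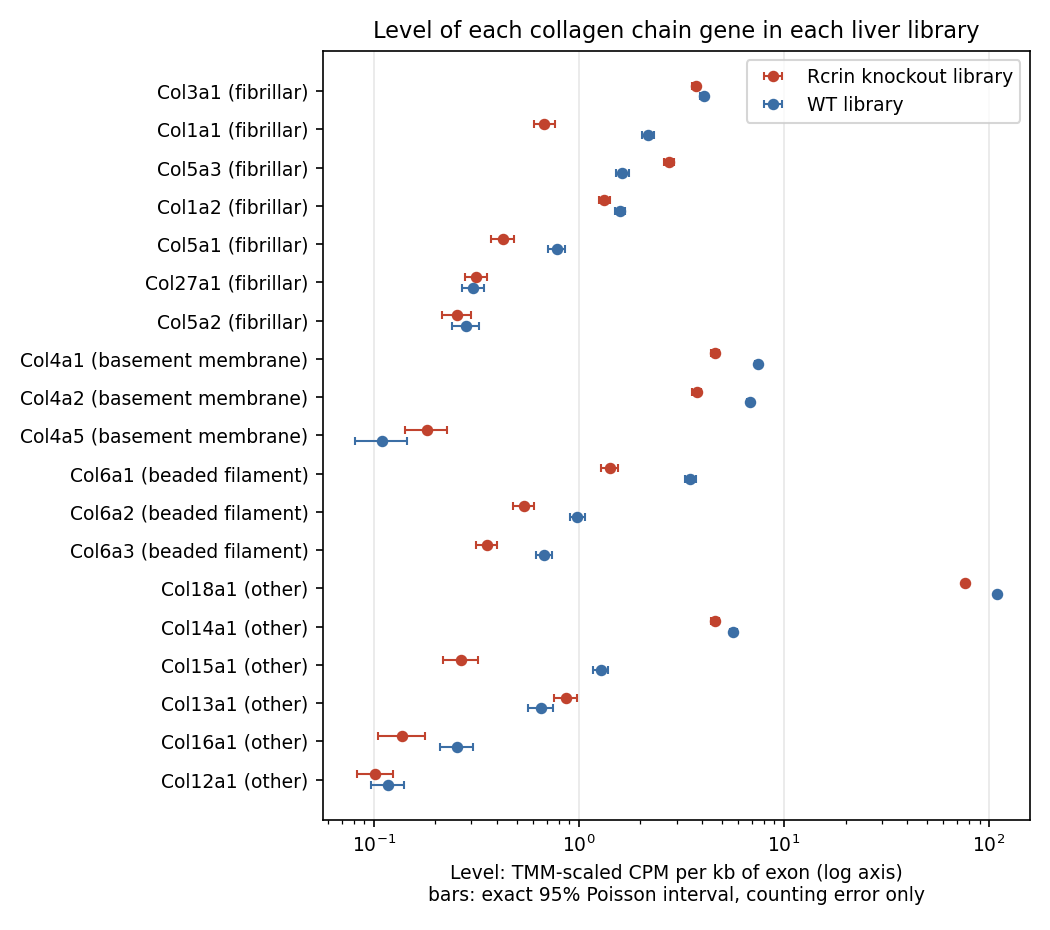
Level of each of the 19 compared collagen chain genes in the Rcrin knockout library (red) and the WT library (blue), as TMM-scaled CPM per kb of exon on a log axis, with exact 95% Poisson intervals (counting error only). Col18a1 lies far to the right of all others in both libraries, and Col15a1, Col1a1 and Col6a1 show the widest gaps between libraries, with the knockout value lower.

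Summed over all 44 chains, the knockout library held 46497 counts and the WT library 70106, a log2 ratio of -0.51 after scaling. Without Col18a1 the sums were 12829 in the knockout library and 19234 in the WT library and the log2 ratio was -0.50. By class the sums of type VI chains differed most, with 966 knockout and 2160 WT counts (log2 ratio -1.08, interval -1.19 to -0.97). Type IV sums were 3807 in the knockout library and 6784 in the WT library (log2 ratio -0.75). The fibrillar sums differed least, with 5409 knockout and 6548 WT counts and a log2 ratio of -0.19.

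Count ratios of chains of the same collagen type do not depend on how the libraries were scaled, but they can move with the GC trend. Removing that trend brought the log2 ratios of Col1a1 and Col1a2 nearer each other (-1.43 and -0.46, against -1.67 and -0.26). The pair ratios below are without that removal. Every pair of compared chains within a type was taken, 10 pairs in all, after the single ratios had been seen. For 9 of them the interval of the change between libraries excluded 0, again for counting error only. At these depths that is common, since the interval of the single log2 ratio excluded 0 for 79.3% of all genes compared, so the count of pairs is not a result about the chains. The Col1a1 to Col1a2 count ratio was 0.270 in the knockout library and 0.719 in the WT library, 2.66-fold lower (log2 change -1.41, interval -1.64 to -1.18). In the type I trimer the alpha 1 chain is normally the more numerous, but that concerns protein. The ratios here are of RNA counts not corrected for length, so they cannot be read against the trimer. Per kb of all exons, Col1a1 lay above Col1a2 in the WT library (2.17 and 1.60) and below it in the knockout library (0.680 and 1.33). The Col4a1 to Col4a2 ratio was nearly even across libraries, at 1.38 in the knockout library and 1.23 in the WT library (log2 change 0.16, interval 0.04 to 0.28).

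Within type VI, the ratio of Col6a2 to Col6a3 was 1.05 in the knockout library and 1.01 in the WT library, and its interval of -0.24 to 0.37 on the log2 scale included 0. Col6a1 stood lower against both partners, with log2 changes of -0.44 against Col6a2 and -0.38 against Col6a3. Within type V, Col5a1 had 0.193 counts for each Col5a3 count in the knockout library and 0.596 in the WT library, 3.08-fold lower (log2 change -1.62). Col5a2 stood lower against Col5a3 as well (-0.89). Ratios to the sparse Col4a5 were 28.3 in the knockout library and 75.4 in the WT library for Col4a1, and 20.5 in the knockout library and 61.1 in the WT library for Col4a2.

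**Figure D4:**
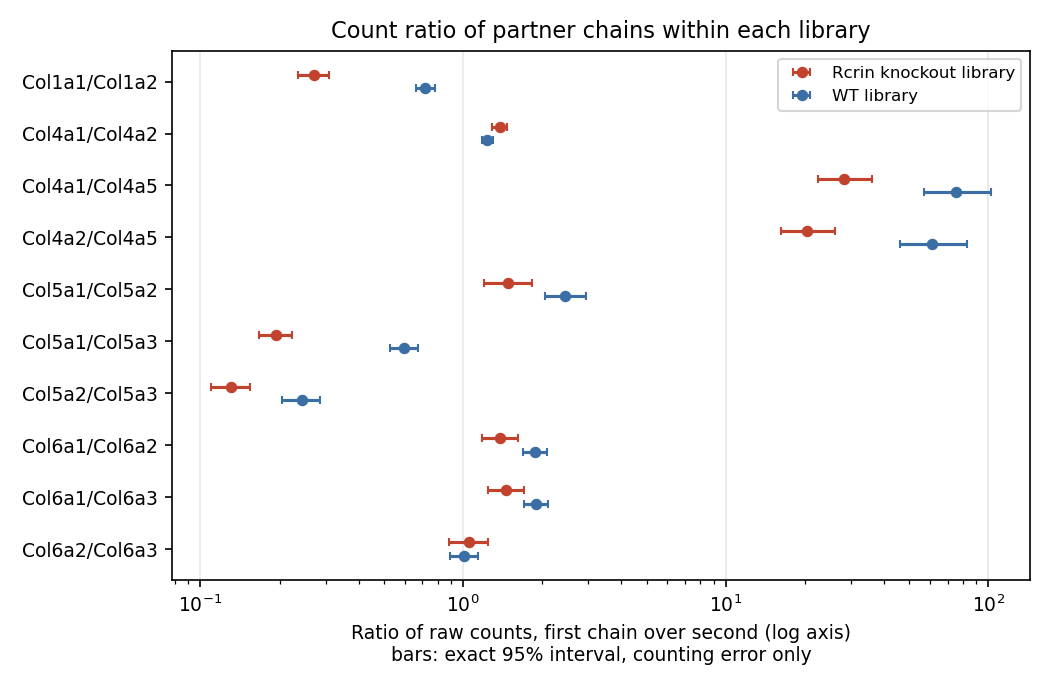
Raw count ratio of the first chain over the second (x axis, log scale) for 10 pairs of chains of the same collagen type, in the Rcrin knockout library (red) and the WT library (blue), with exact 95% intervals (counting error only). The libraries lie widest apart for Col5a1 over Col5a3, Col4a2 over Col4a5, Col4a1 over Col4a5 and Col1a1 over Col1a2. They lie nearer each other for the other pairs, and nearest for Col6a2 over Col6a3.

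The other 25 chains had a mean under 50 counts and no ratio is given for them. The nearest to the limit were Col6a6, with 24 counts in the knockout library and 42 in the WT library, and Col20a1, with 31 in each. On the inner side of the limit lay Col4a5 and Col16a1, described above. In both libraries 8 genes were listed at 0: the cartilage chains Col2a1, Col11a1 and Col9a1, and Col19a1, Col22a1, Col24a1, Col26a1 and Col6a4. Another 3, Col8a2, Col28a1 and Col9a2, were listed at 0 in the knockout library, with 20, 19 and 8 WT counts. Col7a1, the anchoring fibril chain of skin, and Col17a1, the transmembrane chain of hemidesmosomes, had 24 and 9 counts in the knockout library and were listed at 0 in WT. The remaining 12 had counts in both, and after scaling 8 stood lower in the knockout library and 4 higher. The share over all genes under the limit was not computed, so these counts are not a result about the chains. Among the 12 were Col4a3 (9 knockout and 28 WT counts), Col11a2 (10 knockout and 24 WT), Col23a1 (4 knockout and 30 WT) and Col9a3 (19 knockout and 12 WT).

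Genes that fold collagen and carry it out of the cell had ratios on both sides of 0. For comparison, 8.61% of all genes compared were lower and 8.45% higher by at least 2-fold, and 50.8% lay below 0. Of 25 listed genes 23 were compared, 1 was lower and 1 higher by at least 2-fold, 13 lay below 0 and the median was -0.20. That median was -0.32 with the GC trend removed. The lowest were Creb3l1 (60 counts in the knockout library and 280 in the WT library, log2 ratio -2.13), a transcription factor that drives collagen secretion genes, Serpinh1 (1576 knockout and 3249 WT counts, -0.96), the collagen chaperone HSP47, and Crtap (-0.91), part of the prolyl 3-hydroxylase complex. The highest were the collagen galactosyltransferase Colgalt2 (92 knockout and 16 WT counts, 2.57), the prolyl isomerase Fkbp7 (0.68) and the coat protein Sec23a (0.53). Colgalt2, the 1 gene higher by at least 2-fold, reached the mean of 50 counts only through the knockout library.

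Genes that trim and crosslink collagen outside the cell had the lowest median of the 7 pathway lists, at -0.63 over 9 of 15 genes. There 3 were lower by at least 2-fold, 0 were higher and 8 lay below 0, beside 8.61%, 8.45% and 50.8% of all genes compared. Adamts14, a procollagen N-proteinase, had 26 counts in the knockout library and 141 in the WT library (log2 ratio -2.33). It is among the 3 lower genes, but it reached the mean of 50 counts only through the WT library. The lysyl oxidase family members Loxl3 (61 knockout and 185 WT counts, -1.51) and Loxl1 (92 knockout and 232 WT counts, -1.24) followed. At the upper end stood Loxl4 (0.07), Loxl2 (-0.17) and Bmp1, the procollagen C-proteinase (-0.39). The genes Tll1, Tll2 and Adamts3 were listed at 0 in both libraries.

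Partners of the fibrils and of basement membranes had medians a little below 0. Of all genes compared, 8.61% were lower and 8.45% higher by at least 2-fold. For fibril-associated matrix genes the median was -0.14 over 16 of 18 genes, with 2 lower and 1 higher by at least 2-fold. Tenascin XB (Tnxb, 248 knockout and 760 WT counts, log2 ratio -1.53), fibronectin (Fn1, 35080 knockout and 81876 WT counts, -1.14) and biglycan (Bgn, -0.76) were the lowest. Fibromodulin (Fmod, 218 knockout and 112 WT counts, 1.04), Sparc (0.61) and decorin (Dcn, 0.37) were the highest, and Aspn was listed at 0 in both libraries. Basement membrane partners had a median of -0.18 over 13 of 16 genes, with 2 lower and 0 higher. The laminin chains Lamb3 (119 knockout and 383 WT counts, -1.60), Lamb1 (-1.21) and Lama1 (-0.73) were the lowest, and Lama5 (0.48), nidogen 1 (Nid1, 0.41) and Lama3 (0.41) the highest.

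Receptors, turnover and TGF-beta genes had medians near 0. The shares past 2-fold over all genes compared were 8.61% lower and 8.45% higher. Collagen receptors had a median of 0.14 over 7 of 10 genes, with 1 higher by at least 2-fold, the discoidin receptor Ddr2 (148 counts in the knockout library and 56 in the WT library, log2 ratio 1.48). The integrin chains Itga1 (0.67) and Itgb1 (0.41) came next. The lowest were Lair1 (-0.83), Ddr1 (-0.81) and Mrc2 (-0.08), and the platelet receptor Gp6 was listed at 0 in both libraries. Collagen turnover genes had a median of -0.13 over 9 of 16 genes and 0 past 2-fold, from the metalloproteinases Mmp15 (-0.96), Mmp9 (-0.86) and Mmp2 (-0.29) to Timp3 (-0.11), cathepsin K (Ctsk, 0.19) and Mmp19 (0.40). The turnover median was -0.03 with the GC trend removed. TGF-beta signal genes, which drive collagen transcription in stellate cells, had a median of -0.07 over 15 of 16 genes, with 1 lower and 1 higher. Smad4 (315 knockout and 759 WT counts, -1.18), Tgfb3 (-0.91) and Tgfb1 (-0.66) were the lowest, and the receptor Tgfbr2 (958 knockout and 413 WT counts, 1.30), Ltbp2 (0.85) and Tgfbr1 (0.69) the highest. Once the GC trend was removed, the TGF-beta median was 0.01, so it has no firm direction. Scaling by total count gave medians of 0.09 for receptors and -0.12 for TGF-beta genes.

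Marker lists of the cell types known to make collagen had medians on both sides of 0, and their part in the result was not tested. The 16 stellate cell markers, which hold no collagen gene, were all compared and had a median of -0.22, with 9 below 0, beside 50.8% of all genes compared. Their summed level was 349 CPM in the knockout library and 362 in the WT library, and they ran from Rgs5 (-0.55) to Tcf21 (1.08, a gene of 2 exons). The stellate median was 0.03 with the GC trend removed. Smooth muscle markers had the lowest median, -0.96 over 5 of 8 genes, with summed levels of 22.0 CPM in the knockout library and 39.4 CPM in the WT library. Acta2, which activated stellate cells also express, had 140 knockout and 419 WT counts (-1.49), Myh11 stood at -1.31 and Tagln was the highest at -0.50. Myh11 (37 knockout and 98 WT counts) reached the mean of 50 counts only through the WT library. Endothelial markers had a median of -0.18 over 16 genes and summed to 544 CPM in the knockout library and 590 in the WT library, with Oit3 the lowest at -1.13. The single-exon gene Clec14a was listed at 0 in the WT library and had 1087 knockout counts. It reached the level limit only through the knockout library and is counted in the endothelial median and sums.

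The remaining marker lists set the frame of the tissue. Hepatocyte markers had a median of 0.43 over 11 genes and summed to 149138 CPM in the knockout library and 98595 in the WT library, from Pck1 (-0.73) to Hnf4a (1.17), so both libraries are liver by these genes. Kupffer cell and macrophage markers had a median of -0.58 over 12 genes, with sums of 1284 CPM in the knockout library and 1828 in the WT library, from Cd68 (-1.30) to Vsig4 (1.02). Of the portal fibroblast and mesothelial markers compared, 2 lay below 0, beside 50.8% of all genes compared. Their sums were 25.2 CPM in the knockout library and 20.7 CPM in the WT library. They had a median of 0.20 over 7 of 10 genes, from Mfap4 (-0.39) to Upk3b (0.88). That median was 0.0049 with the GC trend removed. Cholangiocyte markers had a median of 0.39 over 7 of 8 genes, with sums of 41.7 CPM in the knockout library and 34.0 CPM in the WT library. In that list Spp1 had a log2 ratio of -1.02 (603 knockout and 1296 WT counts) and Tstd1 one of 2.53 (1377 knockout and 252 WT counts). The higher cholangiocyte sum in the knockout library rests on Tstd1 alone, so the sums give no direction for the list. None of the 7 marker lists had a gene at 0 in both libraries.

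**Figure D5:**
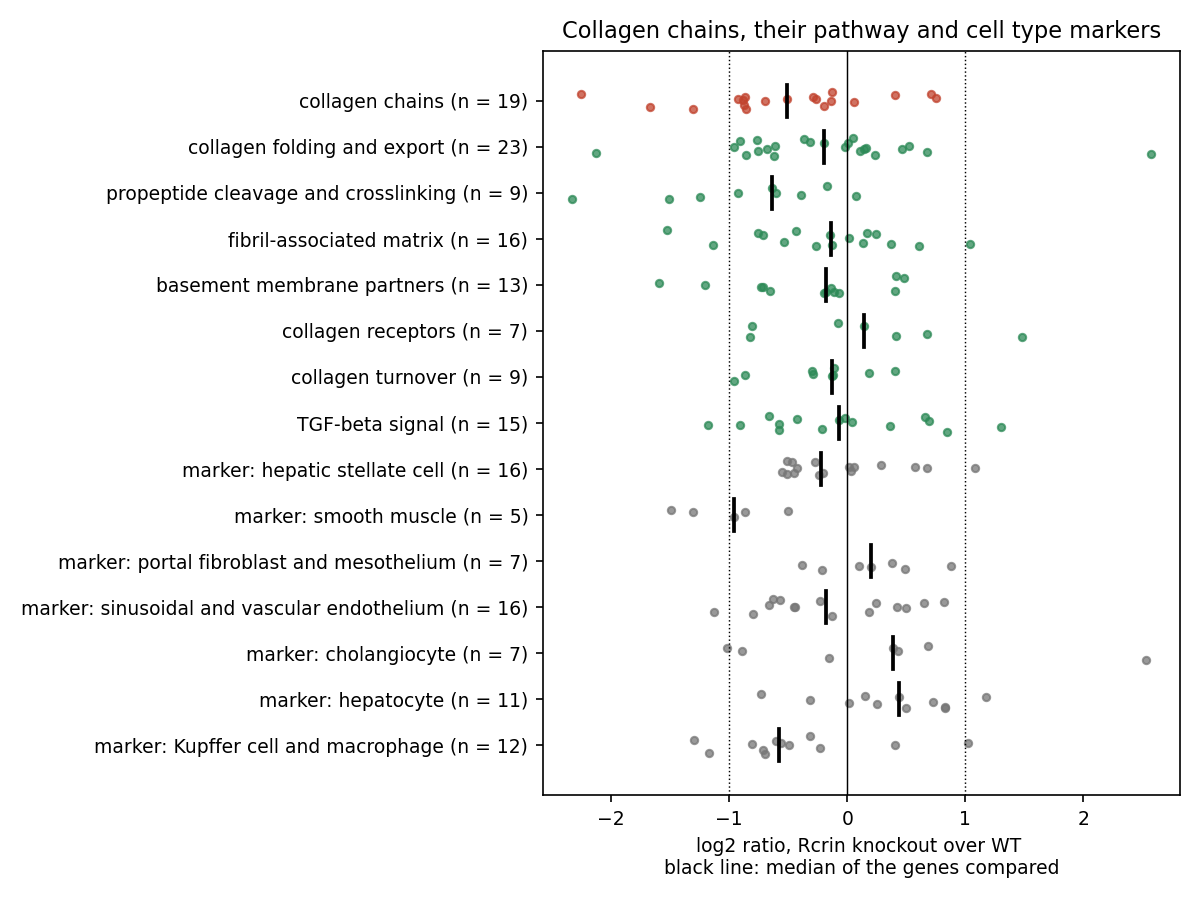
Log2 ratio of Rcrin knockout over WT (x axis) for collagen chains (red), 7 pathway lists (green) and 7 marker lists (grey), with points for genes with counts in both libraries and a black line at the median of the genes compared. The collagen median lies at -0.51, close to those of the propeptide and crosslinking genes (-0.63) and of Kupffer cell markers (-0.58), and below the stellate cell median (-0.22).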

How the data were processed

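Per the labels' protocols, Trizol was used to extract liver RNA and the SMARTER mRNA-Seq kit to build libraries. The authors deposited raw counts per Ensembl gene for 1 library per genotype, per the file headers. The submitters' processing notes name the build GRCm38 (mm10). The sources used here do not give the aligner, counter, annotation release, strand use or the handling of reads with several hits. GENCODE M21 supplied names, positions, exon numbers, lengths and GC content and held 55240 of 55421 genes. The unmatched genes took 0.00956% of the knockout counts and 0.00541% of the WT counts. Library totals were 63587567 (knockout) and 65121596 (WT), scaled by TMM factors of 0.982 and 1.02 from edgeR 4.0.16 in R 4.3.3. DESeq2 1.42.0 served only for alternative size factors. Log2 ratios were taken with 0.5 counts added in proportion to library size. A mean of 50 counts or more was required. The exon number is that of the transcript with most exons.

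No test or p-value was computed, as each genotype has 1 library. Exact intervals were Clopper-Pearson for log2 ratios of genes and sums and for count ratios of pairs within a library. For the change of a pair ratio between libraries they were conditional odds ratio intervals, and for levels Poisson. Only the intervals of single-gene ratios were run on simulated counts. Those counts were drawn from the Poisson model that the intervals assume. The run therefore checks the code and not the spread of real counts. Every compared chain is named, with the 3 lowest and 3 highest genes of each pathway list and the extremes of each marker list. The members and lists were chosen with earlier results of these data known. Promoter letters came from RefSeq on GRCm38.p6. Alternatives were other scalings, level filters, added counts, limits of fold, removal of a GC trend (lowess) and other transcript lengths. The longest transcript, the GC trend for single chains and the partner ratios were added after the values were seen.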

Additional observations from a re-analysis of the deposited data

How the results depend on the processing

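With DESeq2 size factors, total count scaling or 5 counts added, the counts of chains past 2-fold were 3 lower and 0 higher, and all class medians kept their sign. Of all genes, 8.69% were lower and 8.31% higher with DESeq2 size factors. The shares were 9.49% and 7.62% with total count scaling, and 8.36% and 8.1% with 5 counts added. Requiring at least 21 exons could not change the values of the chains, because every compared chain has at least 28 exons. Scaling by total count put the ratio of summed levels per kb at -0.57 for all chains and -0.60 without Col18a1, against -0.52 and -0.54. Median transcript length gave -0.60 and -0.66, and the longest transcript -0.50 without Col18a1. With no level filter 36 chains gave 12 lower and 4 higher (18.6% and 17.6% of all genes) and a median of -0.70, with -0.78 for basement membrane and -0.29 for other chains; the added genes have few counts. A mean of at least 500 counts left 9 chains, 2 of them lower and 0 higher (6.44% and 6.26% of all genes), with -0.78 for basement membrane and -1.31 for the single type VI chain. Removing the GC trend left 3 chains lower (8.16% of all genes) and put 1 chain (Col5a3, 1.03) past 2-fold upward (7.52%). The medians were then -0.45 for basement membrane, -0.74 for beaded filament and -0.29 for other chains. Under that removal 10 single chains moved beyond their counting interval, none with a change of sign. A limit of 1.5-fold gave 9 lower and 2 higher (18.8% and 19.0% of all genes), and 4-fold gave 1 lower (2.80%). No paired analysis was possible because each genotype has 1 library, and no library could be left out.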
